A study of Mus musculus with 6 samples.

Results

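The 37 genes described here encode the proteins that bring fatty acids into a heart cell and oxidise them: uptake, activation to acyl-CoA, the carnitine shuttle and its malonyl-CoA control, mitochondrial beta-oxidation with the transfer of its electrons, peroxisomal beta-oxidation, and thioesterases with the uncoupling protein Ucp3. They were chosen by symbol, with no measured value in the rule, but with earlier results of these data known. All 37 were found among the 35976 genes of the count table, and all 37 were among the 14879 genes with enough counts to test. RNA-seq was made from heart tissue of wild-type (WT) mice. In 3 libraries, called edited 1, 2 and 3, the hearts had received AAV-MYL2-TadA8e-Sauri-U6-Camk2d sgRNA7. This is a single adeno-associated virus in which the MYL2 promoter, active in heart muscle cells, drives the adenine deaminase TadA8e joined to the Cas9 Sauri, and a U6 promoter drives the guide sgRNA7. The guide was aimed at the 5′ splice site of intron 7 of Camk2d, which encodes a calcium/calmodulin-dependent kinase of heart muscle. The other 3 libraries, controls 1, 2 and 3, came from hearts of WT mice whose treatment is given as none, so virus, editor and edit cannot be told apart. Age, sex, dose, the time after treatment and the region sampled are not in the labels. Nor do the labels state which animal each replicate came from, so p-values measure only the spread between these libraries.

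The heart draws most of its energy from fatty acids. Lipoprotein lipase releases them from circulating lipoproteins, carriers such as CD36 take them up, acyl-CoA synthetases activate them, and the carnitine shuttle moves the acyl groups into mitochondria. Each turn of beta-oxidation then runs through a dehydrogenase, a hydratase, a second dehydrogenase and a thiolase, while malonyl-CoA, made by acetyl-CoA carboxylase, inhibits the entry step. The nuclear receptors PPAR alpha and ERR alpha, with the coactivator PGC-1 alpha, are textbook regulators of these genes.

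Total counts per library lay between 17062412 and 23097998, and the lowest raw count of any of the 37 genes in any library was 105. Levels are in CPM, read counts per 1e+06 counts of a library whose total was adjusted by its TMM factor. Camk2d was at 226, 220 and 224 CPM in controls 1, 2 and 3 and at 138, 130 and 164 CPM in edited 1, 2 and 3, and the groups did not overlap. Its mean was 223 ± 3.46 CPM in controls and 144 ± 17.7 CPM in edited hearts (SD, n = 3 each), a log2 fold change of -0.63 (SE 0.07, adjusted p = 4.76e-04 by edgeR's quasi-likelihood test, Benjamini-Hochberg). Its adjusted p was at most 0.00943 with any 1 library left out and 0.0276 with the atrial gene Myl7 as a covariate. Below, 3 values in a row are those of replicates 1, 2 and 3, log2 fold changes are edited over control, adjusted p values come from the same test over all 14879 genes, and "called" means an adjusted p under 0.05.

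Many of the 37 fatty acid genes were lower in the edited hearts, each by a small amount. Of the 37, 17 fell and 0 rose by edgeR (3 were higher at an unadjusted p under 0.05; DESeq2 called 0 higher and limma voom 2). Over all tested genes 4.74% were called lower and 4.93% higher. The 17 that fell were left at 81.5% to 89.4% of the control mean. The median log2 fold change was -0.16 over the 37 genes, against 0.00 over all tested genes. Summed over the 37 genes, the level was 17509, 16958 and 17847 CPM in controls and 15552, 15479 and 15542 CPM in edited hearts. Every control sum was thus above every edited sum. The sums over all 14879 tested genes were 1019470, 1026710 and 1029760 CPM in controls and 983350, 979881 and 962858 CPM in edited hearts. That gap is set by the TMM factors, which were 0.9809, 0.974 and 0.9711 in controls and 1.0169, 1.0205 and 1.0386 in edited hearts. It therefore cannot show whether the separation is particular to the 37 genes, which was not tested. In raw counts the 37 genes held 1.72%, 1.65% and 1.73% of the control libraries and 1.58%, 1.58% and 1.61% of the edited ones. Most of these genes are abundant, and 29 of them averaged at least 100 CPM. All 17 called genes were among those 29. Of all 1687 genes at that level, 15.4% were called lower, which is the closer background. The groups did not overlap for 22 genes on the lower side, against 14.7% of all tested genes, and for 2 on the higher side, Acsl3 and Cpt1a, against 14.6%. Among genes of at least 100 CPM the share without overlap on the lower side was 33.8%. No member changed by more than 1.5-fold (0 of 37 by edgeR's glmTreat, also 0 at an unadjusted p under 0.05), a test that 0.289% of all genes passed.

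**Figure D1:**
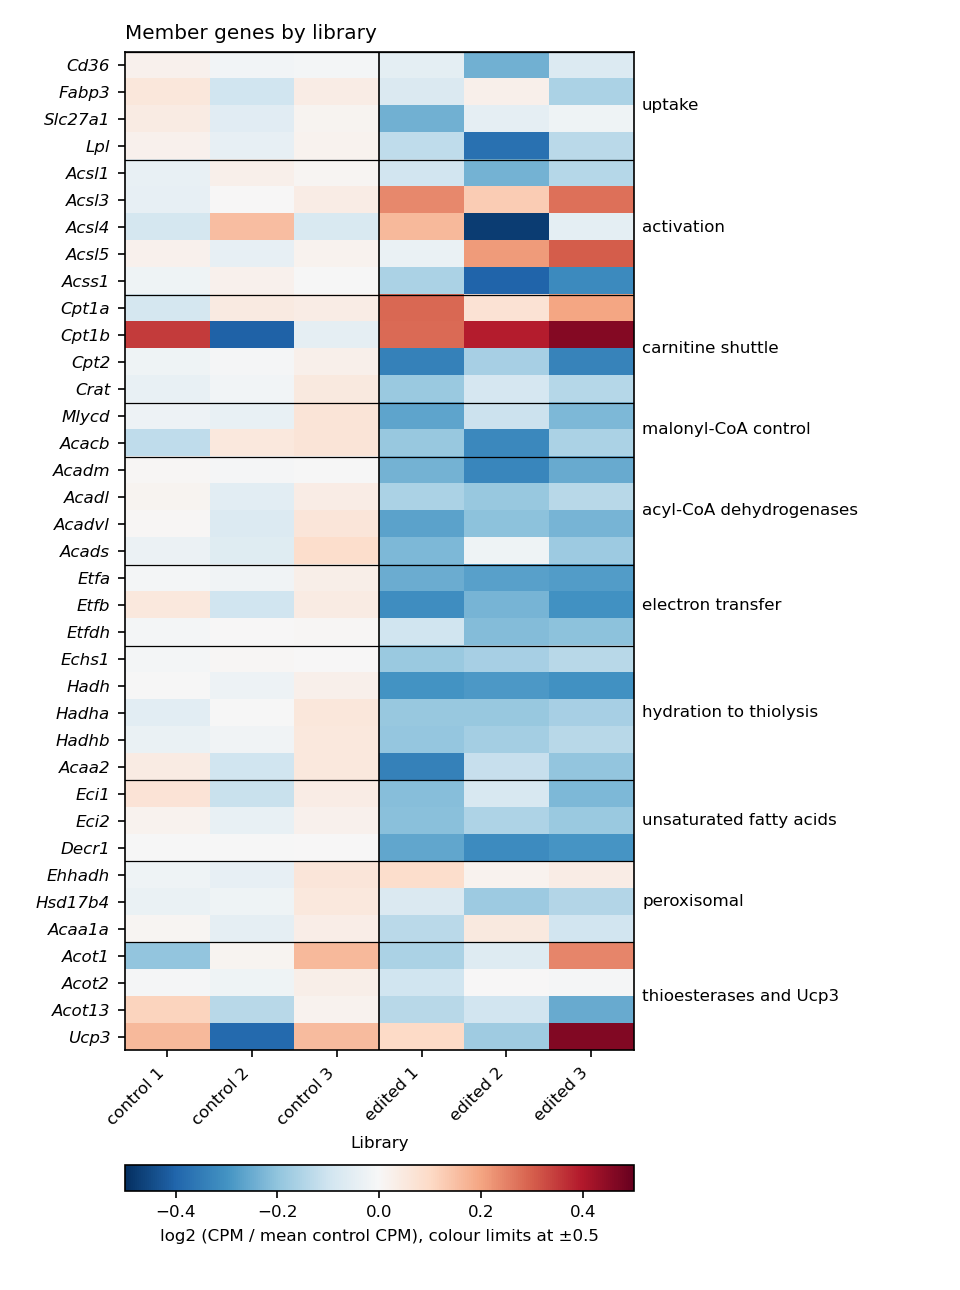
Each of the 37 genes (rows, grouped by step) in each of the 6 libraries (columns), coloured by log2 of its CPM over the mean control CPM, with the colour limits at ±0.5. Of the 37 genes, 30 have their lowest value in an edited library and 28 their highest in a control library. No count over all genes is given beside these.

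Most of the falls lay in mitochondrial oxidation. In its 4 steps (dehydrogenases, electron transfer, hydration to thiolysis, and unsaturated fatty acids), 13 of 15 genes were called lower and the median log2 fold change was -0.18. In the other 6 steps 4 of 22 were called lower, with a median of -0.09. Levels differed between these sets of steps. Every gene of the mitochondrial steps averaged at least 100 CPM, where 15.4% of all genes were called lower. The other steps hold Acsl3, Acsl4, Acsl5, Cpt1b, Ehhadh, Acaa1a, Acot1 and Ucp3, which averaged under 100 CPM and were not called. Differences between steps were not tested. At an unadjusted p under 0.05, 24 of the 37 genes were lower. In either direction 27 of the 37 were under that level, against 3633 of the 14879 tested genes.

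**Figure D2:**
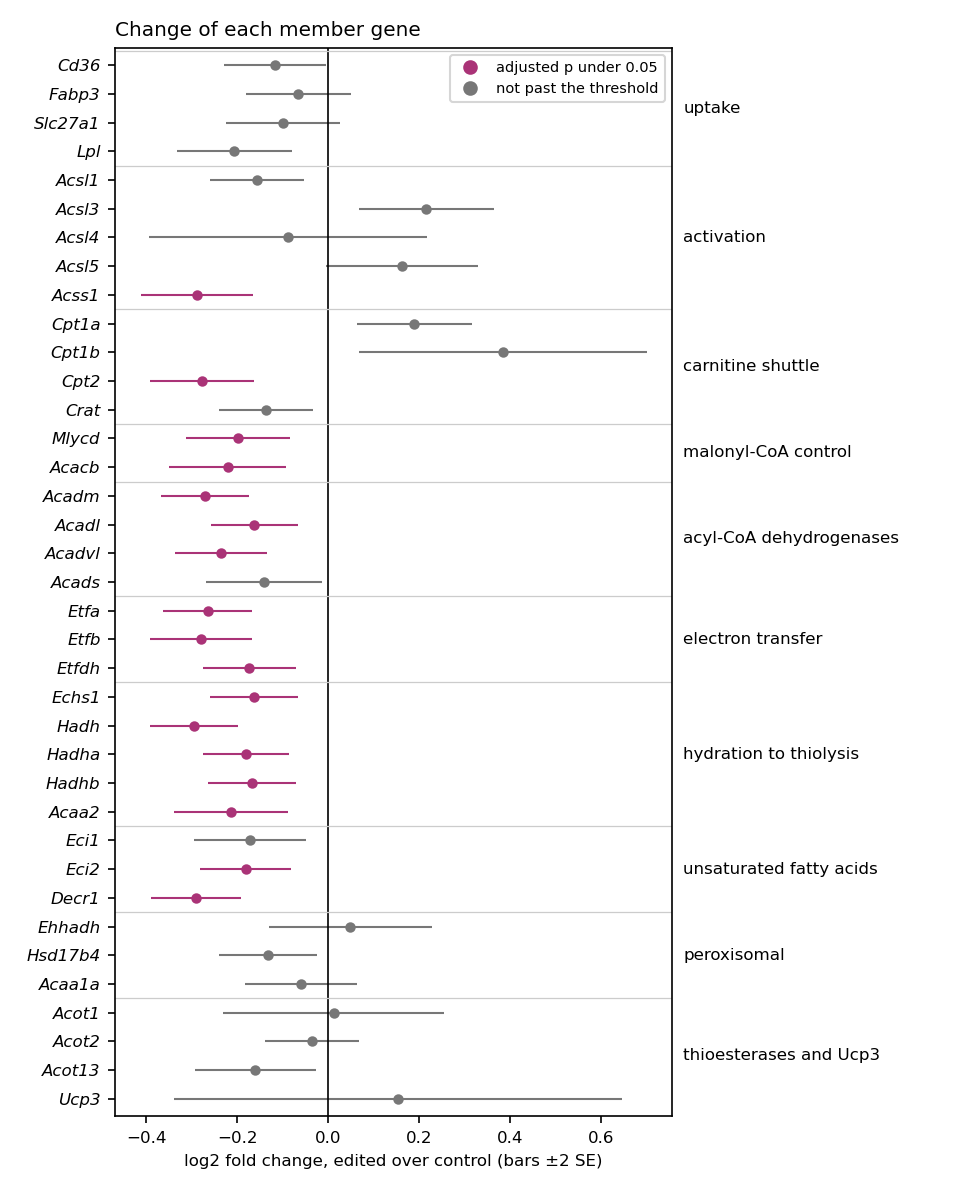
Log2 fold change, edited over control, of each of the 37 genes (points) with bars of ±2 SE, grouped by step. The 17 genes called lower are coloured, and 30 of the 37 points lie below 0.

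The calls were fewer with 1 library left out, whereas the median log2 fold change of the 37 genes stayed between -0.18 and -0.15. Leaving out control 3, which held the highest value of 17 of the 37 genes, left 3 of the 17 calls (Acadm, Hadh and Decr1), and the other 14 had adjusted p values from 0.0528 to 0.256. In that fit the genes called lower over the whole table went from 705 to 198, and the median of the 37 was -0.15. Without edited 3, 6 calls were kept and the lost ones had adjusted p values from 0.0598 to 0.172. Without control 1, 7 were kept and the lost ones lay between 0.0518 and 0.189. Between 10 and 13 of the 17 were kept without control 2, edited 1 or edited 2, and the lost ones had adjusted p values up to 0.109, 0.124 and 0.0881 in turn. All 17 stayed below 0 in each of these fits.

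Libraries also differed in how much atrial RNA they held, and this went partly with the groups. Myl7, the atrial myosin light chain, was at 6.88, 332 and 0.209 CPM in controls and 542, 371 and 914 CPM in edited hearts, so control 2 alone among the controls was near the edited level. Bmp10, another atrial marker, was at 102 CPM in control 2 and at most 0.112 CPM in every other library, so control 2 did not match the edited hearts in all atrial genes. The 6 atrial markers summed to 42.5, 1918 and 20.2 CPM in controls and 1827, 1194 and 2761 CPM in edited hearts. Of these markers 5 were tested: edgeR and DESeq2 called 0 of them, and limma voom called all 5 higher. With the Myl7 level as a covariate, or with control 2 as the only control, all 17 genes still lay below 0 and 0 of them were called. In edgeR the unadjusted p was then under 0.05 for 13 of the 37 genes on the lower side with the covariate. No count over all genes at that level is given for this fit. With 1 control the spread came from the edited libraries alone, the genes called lower over the whole table went from 705 to 53, and Camk2d itself was not called (adjusted p = 0.0964), so little can be read from the lost calls. The covariate took the genes called lower over the whole table to 80. The median log2 fold change of the 37 genes was -0.13 in both fits. These settings were added after the data were seen.

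Markers of the cell types that a heart sample can hold were summed in each library. Those of heart muscle (7 genes, all tested) summed to between 67620 and 69836 CPM in controls and between 57879 and 61848 CPM in edited hearts. Of these 7 markers, Myh6, Tnnt2 and Tnni3 were called lower, all 7 were below 0, and their median log2 fold change was -0.21. DESeq2 and limma voom each called 5 of the 7 lower, adding Ryr2 and Actc1. In bulk tissue, fewer heart muscle cells and less of this RNA per cell cannot be told apart. The 4 ventricular markers summed to 10226 to 12361 CPM against 9396 to 9932 CPM, with Myl3 called lower and Hey2 higher in edgeR. DESeq2 and voom also called Myl2 lower, and DESeq2 did not call Hey2. The 6 endothelial markers summed to 1344 to 1376 CPM against 1297 to 1353 CPM, with 0 of 6 called and 0 at an unadjusted p under 0.05 in edgeR (0 called by DESeq2 and by voom). Fibroblast markers summed to 2284 to 2722 CPM against 2569 to 3464 CPM, and 1 of 6 (Lum) was called higher. Macrophage markers summed to 81.3 to 87.9 CPM against 68.6 to 76.4 CPM, with 0 of 5 called and 2 lower at an unadjusted p under 0.05 in edgeR (0 called by DESeq2 and by voom). Mesothelial markers summed to 25.9 to 26.2 CPM against 27.3 to 47.0 CPM, and of these 5 genes 3 were called higher and 1 lower in edgeR. DESeq2 and voom each called 4 higher and 1 lower. White adipocyte markers summed to at most 1.90 CPM in controls and 15.0 CPM in edited hearts, with Retn at 0 in all 6 libraries. Brown adipocyte markers summed to 43.4 to 49.8 CPM against 51.7 to 79.3 CPM, and Ucp1, their defining gene, was at 28.2 CPM in edited 2 and at most 2.69 CPM elsewhere. Dio2, of the same list, was called higher, at 4.72, 4.32 and 3.29 CPM in controls and 10.6, 6.90 and 9.21 CPM in edited hearts (log2 fold change 1.13, SE 0.18, adjusted p = 0.00226). Smooth muscle markers summed to 535 to 665 CPM against 382 to 1044 CPM, with 0 of 3 called and 0 at an unadjusted p under 0.05 in edgeR (0 called by voom, and Cnn1 called higher by DESeq2). Red cell markers summed to 985 to 1274 CPM against 785 to 1223 CPM, with 0 of 5 called and 0 at an unadjusted p under 0.05 in edgeR (0 called by DESeq2 and by voom). Liver markers reached 17.3 CPM and skeletal muscle markers 2.87 CPM. The part of these markers in the fatty acid gene results was not tested beyond the Myl7 fit.

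Uptake genes gave 0 calls of 4 in edgeR, although all 4 lay below 0 (median log2 fold change -0.11). At an unadjusted p under 0.05, 1 of them was lower, and DESeq2 and limma voom each called 1, in all cases Lpl. Lpl, lipoprotein lipase, came nearest, at 1453, 1392 and 1450 CPM in controls and 1313, 1105 and 1304 CPM in edited hearts. Every edited value was under every control value, and the log2 fold change was -0.21 (SE 0.06, adjusted p = 0.0568). Cd36, the main fatty acid carrier of the heart cell membrane, was at 1044, 1019 and 1021 CPM against 993, 870 and 981 CPM. The groups did not overlap here either, but most of the difference came from edited 2, and the adjusted p was 0.217 (log2 fold change -0.12, SE 0.06). Fabp3, the cytosolic fatty acid binding protein of heart muscle, was at 2717, 2439 and 2677 CPM against 2486, 2661 and 2340 CPM, and the groups overlapped (adjusted p = 0.539). Slc27a1, the carrier FATP1, was at 189, 176 and 185 CPM against 155, 178 and 180 CPM, with edited 1 lowest (adjusted p = 0.361).

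Among the activating enzymes 1 of 5 fell. Acss1, the mitochondrial acetyl-CoA synthetase, was at 158, 163 and 160 CPM in controls and 143, 121 and 128 CPM in edited hearts. The groups did not overlap, and its mean went from 160 ± 2.43 to 131 ± 11.3 CPM (SD, n = 3 each), a log2 fold change of -0.29 (SE 0.06, adjusted p = 0.0104, reaching 0.0676 with 1 library left out). Acsl1, the long-chain acyl-CoA synthetase that dominates in heart, was at 730, 761 and 754 CPM against 701, 636 and 678 CPM. It did not overlap between the groups but missed the threshold (log2 fold change -0.16, SE 0.05, adjusted p = 0.0761). Its relative Acsl3 lay on the other side, at 18.3, 18.9 and 19.3 CPM against 22.2, 20.6 and 22.8 CPM, also without overlap and also short of the threshold (log2 fold change 0.22, SE 0.07, adjusted p = 0.0845). Acsl3 shares 10.6% of its exon bases with Utp14b on the same strand, so some of its reads may belong to that gene. Acsl5 was at 28.2, 27.1 and 28.2 CPM against 27.2, 32.2 and 34.3 CPM (adjusted p = 0.252). Acsl4, which prefers arachidonic acid, was at 19.4, 22.96 and 19.6 CPM against 23.1, 14.9 and 19.99 CPM (adjusted p = 0.785). Per length, the share of Acsl1 in the RNA of these 4 Acsl genes was 87.0% ± 0.0835 in controls against 84.6% ± 0.743 after editing (SD, n = 3 each).

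In the carnitine shuttle 1 of 4 genes fell. Cpt2, the inner-membrane carnitine palmitoyltransferase that reforms acyl-CoA inside the mitochondrion (chr4:107903982-107923589, minus strand, build mm10), was at 183, 185 and 189 CPM in controls and 147, 166 and 148 CPM in edited hearts. All 3 edited values lay below the controls, and the mean went from 186 ± 3.08 to 154 ± 10.6 CPM (SD, n = 3 each). This was 82.5% of the control level (log2 fold change -0.28, SE 0.06, adjusted p = 0.00872, reaching 0.0724 with 1 library left out). Cpt1a, the outer-membrane enzyme that malonyl-CoA inhibits, was at 99.5, 109 and 109 CPM against 129, 111 and 121 CPM. Its groups did not overlap either, with the edited hearts higher, but it missed the threshold (log2 fold change 0.19, SE 0.06, adjusted p = 0.0765). Without edited 2 it was called, with an adjusted p of 0.0129, while leaving out any other library gave adjusted p values from 0.106 to 0.255. Crat, carnitine acetyltransferase, was at 553, 563 and 588 CPM against 500, 535 and 515 CPM and was not called (adjusted p = 0.117).

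Cpt1b, the muscle form of the outer-membrane enzyme, was counted at only 9.33, 5.53 and 7.10 CPM in controls and 8.91, 9.61 and 10.1 CPM in edited hearts, below Cpt1a in every library. This count cannot be read as the level of Cpt1b. In the authors' annotation 94.8% of its exon bases are shared with the gene model Gm44502 on the same strand, and Gm44502 itself was at no more than 0.0558 CPM. How reads that fit both were assigned is not given in the sources used here. Its log2 fold change of 0.38 (SE 0.16, adjusted p = 0.157) is therefore uncertain as well.

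Both genes of malonyl-CoA control fell. Acacb, acetyl-CoA carboxylase beta, makes malonyl-CoA at the mitochondrion, and Mlycd, malonyl-CoA decarboxylase, removes it. Acacb was at 280, 316 and 319 CPM in controls and 268, 244 and 273 CPM in edited hearts (log2 fold change -0.22, SE 0.06, adjusted p = 0.0449). Mlycd was at 116, 115 and 123 CPM against 98.1, 109 and 101 CPM (log2 fold change -0.20, SE 0.06, adjusted p = 0.0444). In neither did the groups overlap. Each call was lost without some single library, with adjusted p values up to 0.228 for Acacb and 0.236 for Mlycd.

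Of the 4 acyl-CoA dehydrogenases, which open each turn of the cycle for chains of different length, 3 fell. Acadm, the medium-chain enzyme (chr3:153922353-153944643, minus strand, mm10), was at 809, 804 and 805 CPM in controls and 683, 643 and 677 CPM in edited hearts. The controls lay close together and every edited heart was well below them: 806 ± 2.89 against 668 ± 21.9 CPM (SD, n = 3 each), or 82.8% of the control level (log2 fold change -0.27, SE 0.05, adjusted p = 0.00396). Acadm kept its call without any 1 library, the highest adjusted p being 0.0436. Acadvl, the very-long-chain enzyme (chr11:70010183-70015428, minus strand), was at 1035, 984 and 1075 CPM against 856, 894 and 878 CPM. The edited values were all lower and its level was 85.0% of control (log2 fold change -0.24, SE 0.05, adjusted p = 0.0106, reaching 0.111 with 1 library left out). Acadl, the long-chain enzyme, was at 1148, 1097 and 1168 CPM against 1021, 997 and 1033 CPM, and it passed the threshold narrowly (log2 fold change -0.16, SE 0.05, adjusted p = 0.0474, reaching 0.256 with 1 library left out). Acads, the short-chain enzyme, was at 181, 177 and 197 CPM against 158, 183 and 163 CPM. Edited 2 lay inside the control range, and Acads was not called (adjusted p = 0.193).

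The 250 bases upstream of the transcription start are shown for Acadm and Acadvl, because both fell and both hold the nuclear receptor half-site AGGTCA, in capitals on either strand. The sequences are RefSeq's on GRCm38.p6, 5′ to 3′ on the gene's strand, at chr3:153944644-153944893 for Acadm and chr11:70015429-70015678 for Acadvl. In Acadm the match is on the opposite strand and reads TGACCT.
Acadm: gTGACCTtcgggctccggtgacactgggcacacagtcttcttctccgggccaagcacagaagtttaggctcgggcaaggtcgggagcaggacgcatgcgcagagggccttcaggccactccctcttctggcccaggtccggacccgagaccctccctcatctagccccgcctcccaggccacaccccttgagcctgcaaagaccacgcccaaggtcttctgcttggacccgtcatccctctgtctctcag
Acadvl: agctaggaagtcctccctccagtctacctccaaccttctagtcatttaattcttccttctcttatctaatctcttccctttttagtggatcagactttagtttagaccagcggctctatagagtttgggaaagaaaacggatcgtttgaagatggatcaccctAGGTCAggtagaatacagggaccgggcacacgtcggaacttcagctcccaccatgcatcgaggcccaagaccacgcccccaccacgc
Of the 37 genes, 30 had a RefSeq promoter window. AGGTCA, searched on both strands, was in 6 of them (Acadm, Acadvl, Cd36, Cpt1a, Echs1 and Ucp3), and 14.02% of all 32851 mouse windows of this length held it. Acadm, Acadvl and Echs1 were called lower and Cd36, Cpt1a and Ucp3 were not. The PPAR direct repeat, a pair of AGGTCA half-sites with 1 base between them, was in 0 of the 30 and in 0.03% of all windows, and the ERR element TNAAGGTCA, which also contains it, was in 0 of the 30 and in 1.14% of all windows. A match is only a description of these letters in this window.

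All 3 genes of electron transfer fell. Etfa and Etfb encode the subunits of the electron transfer flavoprotein, which takes electrons from the dehydrogenases, and Etfdh encodes the enzyme that passes them to ubiquinone. Etfa was at 463, 460 and 475 CPM in controls and 393, 386 and 384 CPM in edited hearts. The groups were far apart relative to their spread, at 466 ± 7.94 and 388 ± 4.35 CPM (SD, n = 3 each; log2 fold change -0.27, SE 0.05, adjusted p = 0.0045). Without control 3 the adjusted p of Etfa was 0.0528. Etfb was at 496, 447 and 493 CPM against 386, 408 and 388 CPM, or 82.3% of control (log2 fold change -0.28, SE 0.06, adjusted p = 0.0072, reaching 0.0757 with 1 library left out). Of the 50-base words in Etfb transcripts, 44.8% recur in other annotated genes, most of them in Gm45233, so part of its reads may not be unique to it. Etfdh was at 519, 523 and 524 CPM against 487, 449 and 453 CPM. It fell too, close to the threshold (log2 fold change -0.17, SE 0.05, adjusted p = 0.0488, reaching 0.197 with 1 library left out).

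Etfdh was the 1 gene of the 30 whose window held the NRF1 site, a palindrome of 10 bases found in 0.78% of all windows. NRF1 is a transcription factor of nuclear genes for mitochondrial proteins. The window, chr3:79628768-79629017 on the minus strand (RefSeq, GRCm38.p6), is shown with that site in capitals.
Etfdh: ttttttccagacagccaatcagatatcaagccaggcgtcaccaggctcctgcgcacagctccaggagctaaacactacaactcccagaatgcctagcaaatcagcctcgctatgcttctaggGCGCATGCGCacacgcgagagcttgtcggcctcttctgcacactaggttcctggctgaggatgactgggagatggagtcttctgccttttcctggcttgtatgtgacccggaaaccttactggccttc

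All 5 genes of the steps from hydration to thiolysis fell. Hadh, the short-chain 3-hydroxyacyl-CoA dehydrogenase (chr3:131233419-131272101, minus strand, mm10), fell. It was at 460, 453 and 469 CPM in controls and 375, 378 and 373 CPM in edited hearts. The means were 461 ± 8.15 and 375 ± 2.12 CPM (SD, n = 3 each), which left 81.5% of the control level, with ±2 SE reaching from 76.2% to 87.1%. The log2 fold change was -0.30 (SE 0.05, adjusted p = 0.00236), and the call held without any 1 library, with adjusted p values up to 0.0333. Echs1, the short-chain enoyl-CoA hydratase, was at 194, 196 and 195 CPM against 172, 174 and 177 CPM. Although its groups were tight and did not overlap, its change was small (log2 fold change -0.16, SE 0.05, adjusted p = 0.0496), and leaving out any 1 library raised the adjusted p to between 0.0543 and 0.185. Acaa2, a thiolase, was at 917, 832 and 923 CPM against 705, 823 and 778 CPM. Edited 2 was just under control 2, and the call (log2 fold change -0.21, SE 0.06, adjusted p = 0.0485) reached an adjusted p of 0.246 with 1 library left out.

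Hadha and Hadhb encode the alpha and beta subunits of the mitochondrial trifunctional protein, which carries out the last 3 reactions on long chains, and they fell together. Hadha was at 1481, 1535 and 1597 CPM in controls and 1350, 1350 and 1370 CPM in edited hearts. Its edited libraries lay close to one another, and the log2 fold change was -0.18 (SE 0.05, adjusted p = 0.0285, reaching 0.207 with 1 library left out). Hadhb was at 941, 950 and 999 CPM against 842, 857 and 875 CPM, also without overlap (log2 fold change -0.17, SE 0.05, adjusted p = 0.0438, reaching 0.254 with 1 library left out). The genes lie head to head on chromosome 5, Hadha on the minus strand at chr5:30118304-30154980 and Hadhb on the plus strand at chr5:30155253-30184593 (mm10), with 272 bases between their starts. The 250 bases upstream of Hadhb, chr5:30155003-30155252 on the plus strand (RefSeq, GRCm38.p6), lie within the stretch between them. They are shown because a single stretch precedes both genes. Its 2 GC boxes (GGGCGG) are in capitals.
Hadhb: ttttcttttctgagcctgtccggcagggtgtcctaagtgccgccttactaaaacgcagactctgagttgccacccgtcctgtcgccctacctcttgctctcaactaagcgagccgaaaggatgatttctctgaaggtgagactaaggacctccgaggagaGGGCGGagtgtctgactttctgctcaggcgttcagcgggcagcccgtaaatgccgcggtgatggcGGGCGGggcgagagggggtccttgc
GGGCGG, searched on both strands, was in the windows of 19 of the 30 genes and in 32.74% of all windows. CCAAT was in 17 of the 30 and in 33.85% of all windows.

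Of the 3 enzymes that prepare unsaturated chains for the cycle, 2 fell. Decr1, the mitochondrial 2,4-dienoyl-CoA reductase (chr4:15917240-15945507, minus strand, mm10), was at 326, 326 and 327 CPM in controls and 272, 262 and 266 CPM in edited hearts. With means of 326 ± 0.744 and 267 ± 5.17 CPM (SD, n = 3 each), its level was 81.8% of control (log2 fold change -0.29, SE 0.05, adjusted p = 0.00291), and it kept its call without any 1 library, at adjusted p values up to 0.0319. Eci2, an enoyl-CoA delta isomerase, was at 166, 160 and 167 CPM against 142, 148 and 145 CPM (log2 fold change -0.18, SE 0.05, adjusted p = 0.0345, reaching 0.166 with 1 library left out). Eci1, the main mitochondrial isomerase, was at 200, 177 and 196 CPM against 165, 180 and 163 CPM. Edited 2 was above control 2, and Eci1 was not called (adjusted p = 0.0981).

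Peroxisomal enzymes gave 0 calls of 3 in edgeR, as in DESeq2 and limma voom, with 1 lower at an unadjusted p under 0.05 (Hsd17b4). Hsd17b4, the D-bifunctional protein, was at 106, 107 and 112 CPM in controls and 103, 95.3 and 97.7 CPM in edited hearts, without overlap (log2 fold change -0.13, SE 0.05, adjusted p = 0.145). Acaa1a, a peroxisomal thiolase, was at 81.3, 78.2 and 82.7 CPM against 73.5, 83.5 and 75.6 CPM (adjusted p = 0.617). Ehhadh, the L-bifunctional enzyme and a classical PPAR alpha target of liver, was at 10.8, 10.7 and 11.5 CPM against 11.7, 11.1 and 11.3 CPM (adjusted p = 0.798). The log2 fold change of Ehhadh was 0.05 with an SE of 0.09, and ±2 SE reached from 91.3% to 117% of the control level.

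The thioesterases, which release free fatty acids from acyl-CoA, and the mitochondrial uncoupling protein Ucp3 gave 0 calls among 4 genes in edgeR and DESeq2, and in each of the 4 the groups overlapped. Acot13 alone was lower at an unadjusted p under 0.05, and limma voom called it. Acot13 was at 143, 120 and 134 CPM in controls and 120, 124 and 111 CPM in edited hearts (adjusted p = 0.154). Acot2 was at 115, 114 and 118 CPM against 108, 116 and 115 CPM (adjusted p = 0.743). Acot1 was at 32.1, 37.1 and 41.2 CPM against 32.9, 35.2 and 43.6 CPM (adjusted p = 0.967). Acot1 and Acot2 are near copies: 19.2% of the 50-base words of Acot1 and 27.7% of those of Acot2 recur in other genes, mostly in each other, so reads may be split between them. Ucp3 varied most within groups of the last step, at 87.7, 59.8 and 87.4 CPM against 83.8, 69.2 and 108 CPM (log2 fold change 0.15, SE 0.25, adjusted p = 0.779).

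Levels of different genes can be compared per length, as CPM per kb of exon. On that scale the 37 genes spanned a wide range in controls. Fabp3 led at 4080 ± 235 CPM per kb (SD, n = 3, as for the other levels here), though 37.3% of its 50-base words recur elsewhere, mostly in a pseudogene. Acaa2 (594 ± 34.2) and Acadl (584 ± 18.8) followed and did not differ beyond their spread. Next came Etfb (529 ± 30.5), Acadvl (471 ± 20.9), Hadha (401 ± 15.2) and Acadm (391 ± 1.40), the last 2 again within their spread, and then Lpl (354 ± 8.55). At the low end were Cpt1a (21.4 ± 1.10), Acsl5 (7.19 ± 0.17), Acsl3 (4.77 ± 0.13), Acsl4 (3.72 ± 0.36) and Ehhadh (3.65 ± 0.14), the last 2 not distinguishable. The 7 most abundant genes after Fabp3 thus included 6 enzymes and electron carriers of mitochondrial oxidation. All 6 were called lower, while Acsl5, Acsl3, Acsl4 and Ehhadh, which averaged under 100 CPM, were not. Calls went with level over the whole table too: 15.4% of genes of at least 100 CPM were called lower, against 4.74% of all tested genes.

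**Figure D3:**
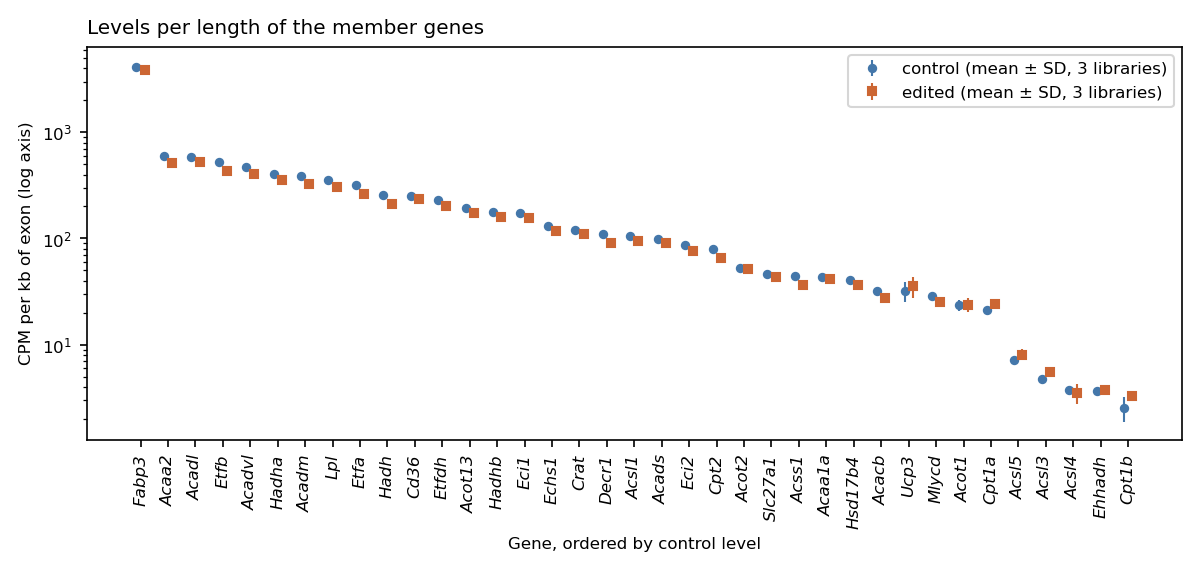
Level of each of the 37 genes in CPM per kb of exon (log axis), ordered by the control level, as means ± SD of 3 control (circles) and 3 edited (squares) libraries. The levels run from Fabp3 at 4080 CPM per kb in controls to Cpt1b at 2.53, where the Cpt1b count is uncertain.

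Ratios of 2 genes within a library do not depend on how the libraries were scaled. For 6 pairs, chosen after the values were seen, the ratio of CPM per kb was compared by a two-sided exact permutation test over the 20 arrangements of 6 libraries, whose smallest possible p is 0.1, so no pair could pass 0.05. Ratios of the subunits of a complex overlapped between the groups, which does not show that they were equal. Hadha to Hadhb was 2.21, 2.27 and 2.24 in controls and 2.25, 2.21 and 2.20 in edited hearts (exact p = 0.5, adjusted 0.6 over the 6 pairs), and Etfa to Etfb was 0.602 ± 0.0303 against 0.608 ± 0.0221 (SD, n = 3 each, exact p = 0.8, adjusted 0.8). The ratio of Cpt1a, an outer enzyme of the shuttle, to Cpt2, the inner one, was 0.258, 0.280 and 0.273 in controls and 0.417, 0.319 and 0.391 in edited hearts. No edited ratio overlapped a control ratio (exact p = 0.1, adjusted 0.15). Cpt1b, the muscle form of the outer enzyme, is left out because its count cannot be read. The ratio is thus not that of all outer to inner enzyme RNA. Acsl1 to Acsl3 was 22.0, 22.3 and 21.5 against 17.4, 17.04 and 16.4, and Hadha to Ehhadh, the mitochondrial to the peroxisomal multifunctional enzyme, was 107, 113 and 109 against 90.7, 95.1 and 95.3. Acacb to Acaca, the mitochondrial to the cytosolic acetyl-CoA carboxylase, was 24.0, 25.9 and 28.7 against 17.7, 16.7 and 18.0. In each of these last 3 pairs the edited ratios were all lower, with the same exact p of 0.1 and adjusted p of 0.15.

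**Figure D4:**
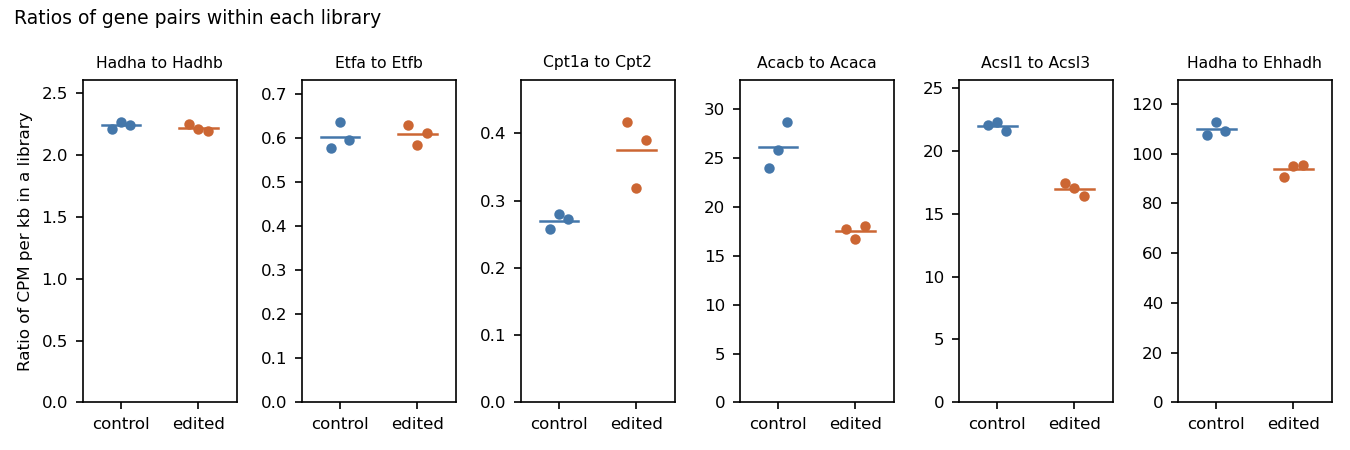
Ratio of the levels per length of 2 genes within each library (points; lines are group means of 3 libraries), each panel with its own axis from 0. Hadha to Hadhb and Etfa to Etfb overlap between groups, whereas the other 4 pairs, chosen after their values were seen, do not.

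Further genes of fatty acid metabolism were examined from a list. Of its 46 genes in the table, 43 were tested, and 3 fell and 2 rose (median log2 fold change -0.02). Among all tested genes 4.74% were called lower and 4.93% higher, so these few calls do not set the list apart. Ech1, a dienoyl-CoA isomerase, was at 720, 718 and 773 CPM in controls and 588, 623 and 599 CPM in edited hearts (log2 fold change -0.29, SE 0.05, adjusted p = 0.00409, and 0.0557 without control 3). The peroxisomal transporter Abcd3 (147, 146 and 152 against 131, 123 and 132 CPM) and the peroxisomal CoA hydrolase Nudt7 (36.6, 40.2 and 43.6 against 33.4, 32.8 and 32.0 CPM) also fell, with adjusted p values of 0.0230 and 0.0200. Acaca rose, from 12.2, 12.8 and 11.6 to 15.8, 15.3 and 15.9 CPM (log2 fold change 0.36, adjusted p = 0.0163), and so did Cpt1c, the brain-type member of the Cpt1 family, from 9.33, 10.0 and 10.5 to 12.1, 12.9 and 13.2 CPM (log2 fold change 0.35, adjusted p = 0.0295). With 1 library left out the adjusted p reached 0.136 for Abcd3, 0.1296 for Nudt7, 0.104 for Acaca and 0.113 for Cpt1c, control 3 among the libraries that ended each of these calls. DESeq2 called neither Acaca (adjusted p = 0.0632) nor Cpt1c (adjusted p = 0.116). With the Myl7 covariate none of the 5 was called, at adjusted p values of 0.181 for Ech1, 0.364 for Abcd3, 0.346 for Nudt7, 0.395 for Acaca and 0.293 for Cpt1c.

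Regulators of the pathway changed in both directions. Of 18 tested, 6 fell and 1 rose (median log2 fold change -0.10). Among all tested genes 4.74% were called lower and 4.93% higher. Ppargc1a, which encodes PGC-1 alpha, was at 192, 164 and 201 CPM in controls and 109, 102 and 106 CPM in edited hearts. This fall (log2 fold change -0.81, SE 0.07, adjusted p = 5.34e-05) was larger than that of any of the 37 genes, and with the Myl7 covariate the adjusted p was 0.00331 at a log2 fold change of -0.62. The other regulators named here were not called with that covariate, at adjusted p values of 0.106 for Rxrg, 0.303 for Ppara, 0.397 for Esrra, 0.313 for Perm1 and 0.275 for Esrrb. Ppara was at 67.9, 70.8 and 81.0 CPM against 59.2, 46.7 and 45.4 CPM (log2 fold change -0.53, SE 0.11, adjusted p = 0.0194, and 0.107 without edited 2). Its heterodimer partner Rxrg was at 40.0, 36.7 and 39.4 CPM against 24.7, 30.3 and 24.1 CPM (log2 fold change -0.55, SE 0.09, adjusted p = 0.00167). Esrra, which encodes ERR alpha, fell by less, from 147, 152 and 163 to 127, 136 and 130 CPM (log2 fold change -0.23, SE 0.06, adjusted p = 0.0182, and 0.133 without control 3). Perm1, a muscle partner of these regulators, also fell (log2 fold change -0.28, SE 0.06, adjusted p = 0.0112, and 0.1003 without control 3). Esrrb rose, from 13.8, 12.96 and 13.9 to 20.9, 15.0 and 19.8 CPM (log2 fold change 0.46, SE 0.11, adjusted p = 0.0224, reaching 0.104 with 1 library left out).

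Textbook PPAR targets outside the 37 genes were examined from a further list. Of its 10 genes 6 were tested, and Plin5 and Ucp2 fell, where 4.74% of all tested genes were called lower. The other 4 tested genes lay above 0, and the median log2 fold change of the list was 0.06. Plin5, the lipid droplet protein of oxidative muscle, was at 87.5, 94.9 and 103 CPM in controls and 69.2, 75.0 and 68.6 CPM in edited hearts (log2 fold change -0.42, SE 0.07, adjusted p = 0.00176, and 0.1202 with the Myl7 covariate). Ucp2, an uncoupling protein relative, was at 352, 387 and 352 CPM against 293, 334 and 288 CPM (log2 fold change -0.25, SE 0.07, adjusted p = 0.0260, reaching 0.1203 with 1 library left out, and 0.122 with the Myl7 covariate).

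The number of calls depended on the scaling. With upper-quartile scaling 8 of the 17 calls were kept (Acss1, Cpt2, Acadm, Acadvl, Etfa, Etfb, Hadh and Decr1), and over all genes the calls split into 531 lower and 849 higher, against 705 and 733 with TMM. Cpt1a was then called higher. The median of the 37 genes was -0.14 under that scaling. Leaving out mitochondrially encoded and haemoglobin genes kept 16 of the 17 calls, and DESeq2's Wald test kept all 17 and called 2 further genes lower.

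**Figure D5:**
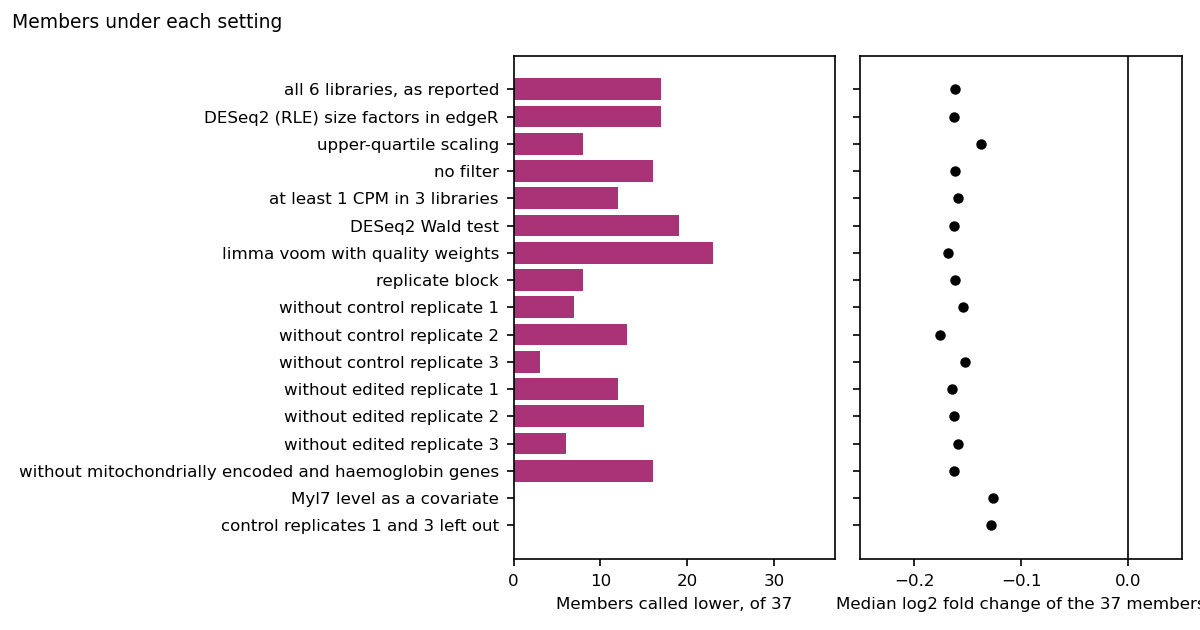
Number of the 37 genes called lower (left bars, axis from 0) and the median log2 fold change of the 37 genes (right points) under each setting. The count runs from 0 to 23, while every median lies below 0.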

How the data were processed

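The members and lists were chosen with earlier results of these data known. The authors deposited raw read counts per gene for 35976 genes and 6 libraries. Reads were processed with cutadapt, FastQC, STAR and featureCounts on build mm10, per the submitters' processing notes. The sources used here do not give versions, the strand setting or the treatment of reads that match several genes. The 2 columns per library were identical in all genes and were used once. The table's exon length (kb) served to compare genes. Libraries of a group differed by more than sampling noise (chi-square per degree of freedom 3.95 to 14.41).

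From these counts, edgeR 4.0.16 (R 4.3.3) kept 14879 genes by filterByExpr, scaled libraries by TMM (factors 0.971 to 1.039) and compared edited with control by its robust quasi-likelihood test, with Benjamini-Hochberg adjustment over all of them. The threshold was an adjusted p of 0.05. A change above 1.5-fold was tested with glmTreat. SE is the size of the log2 fold change divided by the root of F. With 3 libraries a group, small changes of low genes may have been missed. The steps were tested on simulated counts with 200 genes changed. Named genes were the 37 members, the called genes with the smallest p of each further list (up to 6), Ppara, Ppargc1a, Esrra and Camk2d. A gene that this rule picks is not reported here. The marker genes named beside their sums were chosen after their values were seen.

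Alternatives were DESeq2 1.42.0 (test and size factors), limma 3.58.1 voom, upper-quartile scaling, other filters and thresholds, the replicate number as a block, each library left out and, added later, a Myl7 covariate and control 2 as the only control. Promoters came from RefSeq on GRCm38.p6 and overlaps from the authors' annotation with GENCODE M21 transcripts.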

Additional observations from a re-analysis of the deposited data

How the results depend on the processing

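All 17 genes called lower kept their direction in every alternative run. Their number, 17 of 37, was 8 with upper-quartile scaling, 8 with the replicate block, 6 at an adjusted p of 0.01, 0 for a change above 1.5-fold, 0 with the Myl7 covariate, 0 with control 2 as the only control, and 3 to 15 with 1 library left out. The number called higher, 0 in the reported fit, was 1 with upper-quartile scaling, 2 without a filter, 2 by limma voom, 2 at an adjusted p of 0.1, and 0 to 2 with 1 library left out. The median log2 fold change of the members, -0.16, was -0.14 with upper-quartile scaling, -0.13 with the Myl7 covariate, -0.13 with control 2 as the only control, and -0.18 to -0.15 with 1 library left out. Over all genes, the 705 called lower became 1091 by limma voom, 457 with the replicate block, 252 and 1087 at adjusted p values of 0.01 and 0.1, 14 for a change above 1.5-fold, 80 with the Myl7 covariate, 53 with control 2 as the only control, and 198 to 756 with 1 library left out. The 733 called higher became 1290 without a filter, 1194 by limma voom, 251 and 1135 at adjusted p values of 0.01 and 0.1, 29 for a change above 1.5-fold, 42 with the Myl7 covariate, 29 with control 2 as the only control, and 188 to 921 with 1 library left out. Of the fits with 1 library left out, the one without control 3 gave the lowest of these counts. Some of these settings hold fewer samples or a stricter threshold by construction; for the others the cause was not tested.

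Changes of sign were seen in members that were not called. With 1 library left out, the log2 fold change of Acot1 ran from -0.12 (without edited 3) to 0.10 and was also below 0 without control 1, that of Ucp3 from -0.033 (without edited 3) to 0.29 and also below 0 without control 2, and that of Acsl4 from -0.25 to 0.064 (without edited 2). Acot1 was at -0.0031 with control 2 as the only control. Fabp3 was at 0.048 with the Myl7 covariate and 0.028 with control 2 as the only control, and Acaa1a was at 0.0054 with the Myl7 covariate.

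The replicate numbers did not pair the samples: deviations of same-numbered control and edited libraries correlated at -0.008, -0.128 and -0.087 across genes, and the block kept 8 of the 17 calls. The lowest count of a member was 105; what limited the members that were not called was not tested.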

Other observations

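Several genes that respond to fasting or fatty acids through PPAR varied widely within both groups; they are named after their values were seen. Pdk4, which encodes the kinase that shuts down pyruvate dehydrogenase, was at 555, 374 and 480 CPM in controls 1, 2 and 3 and 495, 314 and 653 CPM in edited 1, 2 and 3 (log2 fold change 0.05, SE 0.34, adjusted p = 0.9496 by edgeR). Angptl4, an inhibitor of lipoprotein lipase, was at 62.6, 27.2 and 43.1 CPM against 68.3, 59.5 and 100 CPM (log2 fold change 0.78, SE 0.40, adjusted p = 0.338 by edgeR). Ucp3, in the same libraries, was at 87.7, 59.8 and 87.4 CPM against 83.8, 69.2 and 108 CPM. In each of these 3 genes control 2 was the lowest control, edited 2 the lowest edited library and edited 3 the highest library of the 6, and the groups overlapped.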
